A study of Mus musculus with 33 samples.

Results

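The 10 genes described here mark the early heart and its muscle, and were followed through the differentiation of mouse embryonic stem cells (ESCs) into embryoid bodies (EBs). They were chosen by symbol: 6 transcription factors of cardiac mesoderm (*Hand1*, *Hand2*, *Nkx2-5*, *Tbx20*, *Isl1* and *Mef2c*) and 4 sarcomere proteins (*Tnnt2*, *Myl4*, *Myl7* and *Actc1*). All 10 were listed among the 16336 genes of the table. Wild-type E14Tg2a cells (129/Ola strain) were compared with ΔK9.1 and ΔK9.2, clones of E14Tg2a in which CRISPR/Cas9 removed the stretch upstream of *Nanog* that carries trimethylated histone H3 lysine 9 (H3K9me3). Each mutant genotype is 1 clone, so clone and deletion cannot be told apart within a line. All lines grew on gelatine in FCS and LIF (day 0), and were then kept in FCS without LIF as floating aggregates (day 4) and as outgrowths replated on gelatine (days 6 and 8). There were 3 libraries per line on days 0, 4 and 8 and 2 libraries per line, replicates 2 and 3, on day 6, which makes 33 libraries in all. The comparison asks how the loss of this region, and the *Nanog* expression that remains without it, goes together with the onset of heart genes.

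Heart cells arise from mesoderm that leaves the primitive streak under BMP, WNT and FGF signals and settles as the cardiac crescent. NKX2-5, TBX20, ISL1, MEF2C and the HAND proteins then act together, with GATA factors, on genes of the contractile apparatus. In that apparatus actin filaments (*Actc1* encodes the cardiac α-actin) carry troponin (*Tnnt2* encodes its tropomyosin-binding subunit), and myosin motors bear light chains (*Myl4* and *Myl7* encode those of the embryonic and adult atrium). None of the 6 factors is restricted to the heart: *Hand1* is also known from extra-embryonic mesoderm and trophoblast, *Hand2* from limb and neural crest, *Isl1* from motor neurons, and *Mef2c* from endothelium and skeletal muscle.

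Levels are given as transcript abundance corrected for gene length and library size (TPM), which the authors computed for each library and which allows genes to be compared per length. Tests used limma on log2(TPM + 1) over all 33 libraries, with Benjamini-Hochberg adjustment over the 16336 genes. A gene was called higher or lower at an adjusted p under 0.05 with a log2 fold change beyond 1 in size. On this scale the change of low genes is understated. On day 0 *Pou5f1*, the defining factor of ESCs, was at 1761 ± 251 TPM (SD, n = 3) in E14Tg2a, at 1367 ± 121 TPM in ΔK9.1 and at 1730 ± 117 TPM in ΔK9.2. On day 8 *Nanog* was at 34.6, 23.7 and 22.0 TPM in E14Tg2a, at 70.6, 49.3 and 176.7 TPM in ΔK9.1, and at 118.5, 69.9 and 126.1 TPM in ΔK9.2. Replicate 3 of ΔK9.1 stood apart with the highest *Nanog* and the lowest *Hand1*, *Hand2* and *Tbx20* of the 9 libraries, so the day 8 differences and list counts are also given without it. In RNA from whole cultures, fewer cells of a type and less RNA per cell cannot be told apart.

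In wild-type EBs all 10 genes were upregulated by day 8. Of the 10 genes 10 were called higher on day 8 than on day 0, where 15.9% of all genes were. On day 6 the count was 5 of 10 (*Hand1*, *Hand2*, *Tbx20*, *Isl1* and *Actc1*) against 8.95% of all genes. Without replicate 2 of day 6 *Tbx20* was not called (1.496, limma adjusted p = 0.052), and *Nkx2-5* was called without replicate 3 (1.40, limma adjusted p = 0.00157). With a pseudocount of 0.1 *Nkx2-5* (1.98, limma adjusted p = 0.0123) and *Mef2c* (3.06, limma adjusted p = 0.00264) were called as well. On day 4 only *Actc1* was called higher, against 3.67% of all genes, and *Myl7* was called lower, against 4.07%. In a fit on the compared groups alone *Tnnt2* was called on day 6 too (1.04, limma adjusted p = 0.0479). The 5 genes called by day 6 in the main fit included 4 of the 6 transcription factors and 1 of the 4 sarcomere genes. In that fit *Nkx2-5*, *Mef2c*, *Tnnt2*, *Myl4* and *Myl7* were called higher on day 8 and on neither earlier day.

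**Figure D1:**
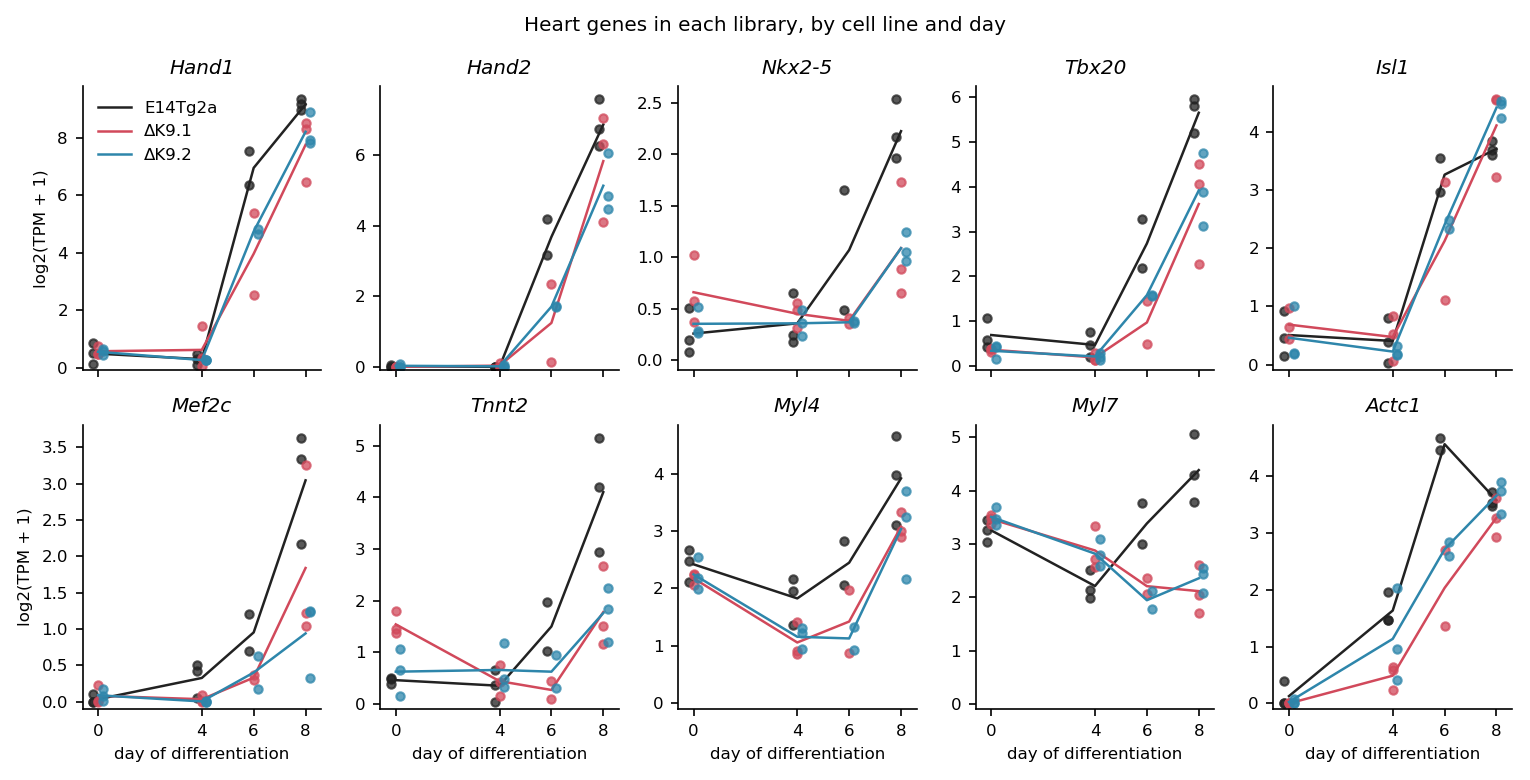
Each panel shows 1 gene as log2(TPM + 1) against the day of differentiation, with a point for each of the 33 libraries and lines through the means of E14Tg2a (black), ΔK9.1 (red) and ΔK9.2 (blue). The factors lie near 0 until day 4 and are highest on day 8 in E14Tg2a, *Myl7* climbs in E14Tg2a but not in the clones, and *Actc1* peaks on day 6 in E14Tg2a.

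*Hand1* (chr11:57828705-57832818 of mm10, minus strand) and *Hand2* (chr8:57320983-57324633, plus strand), which encode paralogous basic helix-loop-helix factors, were the most abundant of the 10 in E14Tg2a on day 8. *Hand1* was below 1 TPM in every E14Tg2a library of days 0 and 4, at 187.2 and 81.6 TPM on day 6, and at 504.0, 589.5 and 652.7 TPM on day 8. *Hand2* was listed at 0 in 5 of the 6 E14Tg2a libraries of days 0 and 4. It stood at 17.4 and 8.01 TPM on day 6 and at 76.3, 191.1 and 106.8 TPM on day 8. The log2 fold change from day 0 to day 8 was 8.70 for *Hand1* (standard error 0.51, limma adjusted p = 1.17e-12) and 6.85 for *Hand2* (standard error 0.52, limma adjusted p = 6.89e-11). *Hand2* shares its locus with the antisense gene *Hand2os1* (chr8:57281117-57324233, minus strand), which was listed at 0 in all E14Tg2a libraries of day 4 and at 19.7 ± 7.71 TPM (SD, n = 3) on day 8, when it was at 16.1 ± 10.5 TPM in ΔK9.1 and at 6.35 ± 4.73 TPM in ΔK9.2. The libraries were stranded.

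*Tbx20*, a T-box factor of the heart field (chr9:24718138-24774303, minus strand), reached 35.8, 61.1 and 54.5 TPM on day 8 from a mean of 6.13 TPM on day 6. *Isl1*, a LIM homeodomain factor of second heart field progenitors (chr13:116298281-116309689, minus strand), had most of its level by day 6, with 10.8 and 6.86 TPM, and was at 11.95, 11.1 and 13.4 TPM on day 8. *Mef2c*, a MADS-box factor of muscle genes (chr13:83504034-83667080, plus strand), was at 3.49, 11.4 and 9.14 TPM on day 8. *Nkx2-5*, the homeodomain factor most used to mark cardiac progenitors (chr17:26838664-26845009, minus strand), was the lowest of the 10 at 2.91, 3.496 and 4.82 TPM.

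The sarcomere genes did not share 1 course. *Tnnt2* (chr1:135836354-135852260, plus strand) was below 1 TPM on days 0 and 4 in E14Tg2a, at 2.93 and 1.04 TPM on day 6 and at 6.69, 17.5 and 34.5 TPM on day 8. *Actc1* (chr2:114047282-114053548, minus strand) appeared first, with 1.76, 1.77 and 2.91 TPM on day 4, was highest on day 6 with 20.9 and 24.5 TPM, and stood at 10.1, 12.2 and 10.6 TPM on day 8. The light chain genes were already present in ESCs. *Myl4* (chr11:104550663-104595753, plus strand) was at 4.58, 3.32 and 5.36 TPM on day 0, and *Myl7* (chr11:5896637-5898782, minus strand) at 9.95, 7.26 and 8.63 TPM. *Myl7* fell by 1.04 on the log2 scale to day 4 (limma adjusted p = 0.0058), a call that was lost with median ratio scaling (−0.98), without replicate 1 of day 0 (−0.95) and without replicate 3 of day 4 (−0.93).

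By mean level on day 8 the order in E14Tg2a was *Hand1*, *Hand2*, *Tbx20*, *Myl7*, *Tnnt2*, *Myl4*, *Isl1*, *Actc1*, *Mef2c* and *Nkx2-5*. The libraries of *Hand1*, *Hand2* and *Tbx20* did not overlap with each other or with those of *Myl7*. From *Myl7* down, each neighbour in the order overlapped with the next. Replicate 1 of E14Tg2a was the lowest of its 3 libraries for 9 of the 10 genes and had the highest *Nanog* of the 3.

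In the clones several of the genes were lower than in wild type on day 6 and on day 8, and no difference was called before. On day 0 and on day 4, 0 of the 10 genes were called in either direction between the mean of both clones and E14Tg2a. Of all genes 0.220% were called higher and 0.165% lower on day 0. On day 4 it was 0.0857% higher and 0.710% lower, so 0 of 10 is near the shares of all genes. At an unadjusted p under 0.05 limma listed 2871 genes on day 0 and 2524 on day 4, among them on day 4 *Myl4* (−0.72), *Myl7* (0.64) and *Actc1* (−0.82), and *Actc1* was called on day 4 without replicate 3 of ΔK9.2 (−1.05, adjusted p = 0.0118). On day 6, 4 of the 10 (*Hand1*, *Hand2*, *Myl7* and *Actc1*) were lower in the clones, against 1.37% of all genes. On day 8, 6 of the 10 (*Hand2*, *Nkx2-5*, *Tbx20*, *Mef2c*, *Tnnt2* and *Myl7*) were lower, against 3.42%. None was called higher on either day. With the replicate number as a block *Tbx20* and *Myl4* were also called lower on day 6, and *Hand1* on day 8. The median log2 fold change of the 10 genes was −1.24 on day 6 and −1.28 on day 8, and over all genes it was −0.03 and 0.00. When each day was fitted on its own libraries alone, 0 of the 10 genes were called on day 6 and 1 (*Myl7*) on day 8, so the other calls rest on the spread shared by all 12 groups of line and day. Undifferentiated cell markers moved with these results: on day 8 *Nanog* was higher in the clones by 1.79 on the log2 scale (limma adjusted p = 1.28e-05) and *Pou5f1* by 1.52 (limma adjusted p = 0.000411). On day 6 *Pou5f1* was at 848.4 and 959.0 TPM in E14Tg2a and between 1230 and 1665 TPM in the clones (0.64, limma adjusted p = 0.35). *Sox2* was at 58.1 and 74.4 TPM against 118.7 to 204.0 TPM (1.08, limma adjusted p = 0.0846). Neither gene was called on that day. Every clone library lay above every wild-type library for *Pou5f1* and *Sox2*, but this was so for 12.8% of all genes. The part of these markers in the lower heart genes was not tested.

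**Figure D2:**
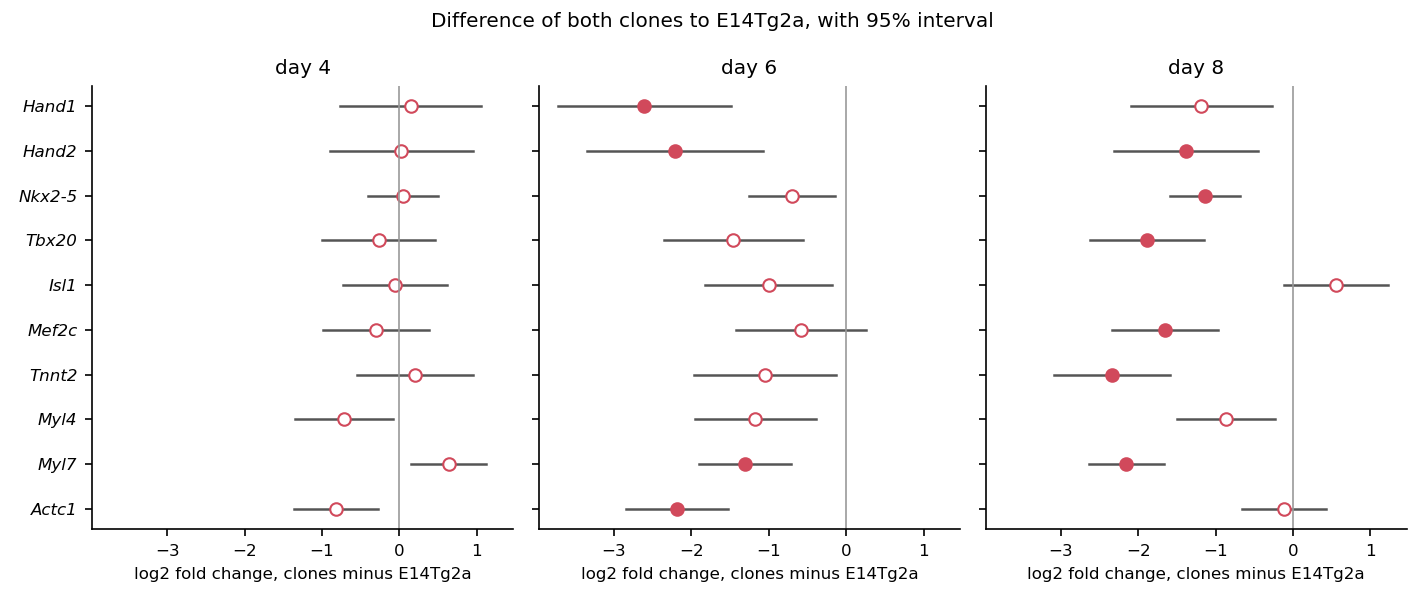
The log2 fold change of both clones against E14Tg2a is plotted for each of the 10 genes on days 4, 6 and 8, with its 95% interval from limma and with filled points where the thresholds were passed. On day 6 every gene lies below 0, and on day 8 *Isl1* and *Actc1* have intervals that include 0 while *Tnnt2* and *Myl7* lie below −2.

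On day 6 *Hand1* was at 187.2 and 81.6 TPM in E14Tg2a, at 40.9 and 4.82 TPM in ΔK9.1, and at 24.0 and 27.8 TPM in ΔK9.2. All 4 clone libraries were below both wild-type libraries, and ΔK9.1 replicate 3 was the lowest. The log2 fold change was −2.61 (standard error 0.54, limma adjusted p = 0.00574). It was −2.01 with an adjusted p of 0.275 (limma) without replicate 2 of E14Tg2a, and −2.69 with 0.0565 for a pseudocount of 0.1. On day 8 *Hand1* was at 504.0, 589.5 and 652.7 TPM in E14Tg2a, at 369.9, 314.6 and 87.3 TPM in ΔK9.1 and at 242.8, 479.4 and 225.8 TPM in ΔK9.2. The groups again did not overlap, and the difference of −1.19 (standard error 0.44) had a limma adjusted p of 0.0599. It passed with the replicate number as a block (adjusted p = 0.0292), and without replicate 1 of ΔK9.1 (0.036), replicate 2 of ΔK9.1 (0.0414) or replicate 2 of ΔK9.2 (0.0366).

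*Hand2* was at 17.4 and 8.01 TPM on day 6 in E14Tg2a, at 4.07 and 0.11 TPM in ΔK9.1 and at 2.25 and 2.29 TPM in ΔK9.2, without overlap. The difference was −2.21 (standard error 0.55, limma adjusted p = 0.0219). Leaving out either E14Tg2a library, ΔK9.1 replicate 3 or either ΔK9.2 library gave values from −1.66 to −2.72 and adjusted p from 0.0508 to 0.441. On day 8 it was at 76.3, 191.1 and 106.8 TPM in E14Tg2a, at 78.8, 133.0 and 16.4 TPM in ΔK9.1 and at 21.4, 66.3 and 27.9 TPM in ΔK9.2. Both groups of libraries overlapped through replicates 1 and 2 of ΔK9.1. The difference of −1.38 (standard error 0.45, limma adjusted p = 0.0315) was −0.96 with an adjusted p of 0.0686 without replicate 3 of ΔK9.1, −1.03 (0.248) without E14Tg2a replicate 2, −1.44 (0.0698) without E14Tg2a replicate 3, −1.22 (0.0771) without ΔK9.2 replicate 1 and −1.31 (0.0529) without ΔK9.2 replicate 3. With a pseudocount of 0.1 it was −1.41 (limma adjusted p = 0.114).

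*Tbx20* and *Nkx2-5* were lower in every clone library of day 8 than in every E14Tg2a library. *Tbx20* was at 35.8, 61.1 and 54.5 TPM in E14Tg2a, at 15.8, 21.8 and 3.81 TPM in ΔK9.1 and at 13.8, 25.8 and 7.67 TPM in ΔK9.2, a log2 fold change of −1.89 (standard error 0.36, limma adjusted p = 0.00059). On day 6 its difference was −1.46 with a limma adjusted p of 0.0586, or 0.0104 with the replicate block, where it was called. Without ΔK9.1 replicate 2 the difference was −1.70. *Nkx2-5* was at 2.91, 3.496 and 4.82 TPM in E14Tg2a, at 0.85, 2.32 and 0.57 TPM in ΔK9.1 and at 0.95, 1.38 and 1.07 TPM in ΔK9.2. The difference of −1.14 (standard error 0.22, limma adjusted p = 0.000804) shrank to −0.98 without replicate 3 of E14Tg2a, below the fold threshold. On day 6 *Nkx2-5* was at 2.15 and 0.40 TPM in E14Tg2a and between 0.28 and 0.33 TPM in the clones, a difference of −0.70 (limma adjusted p = 0.161), or −1.28 (0.0301) without E14Tg2a replicate 3. The mean of *Tbx20* in ΔK9.1 and ΔK9.2 was 27.3% and 31.3% of that in E14Tg2a, and the mean of *Nkx2-5* was 33.3% and 30.3%.

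*Mef2c* was at 3.49, 11.4 and 9.14 TPM on day 8 in E14Tg2a, at 1.06, 8.58 and 1.32 TPM in ΔK9.1 and at 0.26, 1.39 and 1.35 TPM in ΔK9.2. Replicate 2 of ΔK9.1 lay within the wild-type range and the other 5 clone libraries below it. It came to a difference of −1.66 (standard error 0.33, limma adjusted p = 0.00104). On day 6, at 1.31 and 0.63 TPM in E14Tg2a and between 0.13 and 0.54 TPM in the clones, it was −0.59 (limma adjusted p = 0.511). *Isl1* was the factor with a higher mean in both clones than in wild type on day 8. It was at 11.95, 11.1 and 13.4 TPM in E14Tg2a, at 22.7, 22.4 and 8.38 TPM in ΔK9.1 and at 21.3, 22.2 and 18.0 TPM in ΔK9.2, so 5 of 6 clone libraries were above all E14Tg2a libraries and replicate 3 of ΔK9.1 below them. The difference of 0.56 had a 95% interval from −0.11 to 1.23 and a limma adjusted p of 0.252. On day 6 *Isl1* had been at 10.8 and 6.86 TPM in E14Tg2a, 7.82 and 1.17 TPM in ΔK9.1 and 4.04 and 4.59 TPM in ΔK9.2, a difference of −1.001 (limma adjusted p = 0.175) that was called, at −1.51 (0.0083), without ΔK9.1 replicate 2.

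*Tnnt2* and *Myl7* had the largest differences of the 10 genes on day 8. On that day *Tnnt2* was at 6.69, 17.5 and 34.5 TPM in E14Tg2a, at 1.22, 5.39 and 1.83 TPM in ΔK9.1 and at 1.31, 3.72 and 2.57 TPM in ΔK9.2. *Myl7* was at 12.9, 18.7 and 32.6 TPM in E14Tg2a, at 2.25, 5.11 and 3.10 TPM in ΔK9.1 and at 4.43, 4.87 and 3.21 TPM in ΔK9.2. Neither gene overlapped between the groups, although E14Tg2a itself spread widely for both. The difference came to −2.33 for *Tnnt2* (standard error 0.36, limma adjusted p = 9.35e-05) and −2.15 for *Myl7* (standard error 0.24, limma adjusted p = 2.08e-06). Mean levels in ΔK9.1 and ΔK9.2 were 14.4% and 12.9% of the wild-type mean for *Tnnt2* and 16.3% and 19.5% for *Myl7*. On day 6 *Tnnt2* was at 2.93 and 1.04 TPM in E14Tg2a, at 0.36 and 0.066 TPM in ΔK9.1 and at 0.92 and 0.24 TPM in ΔK9.2, with a difference of −1.05 (limma adjusted p = 0.207).

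*Myl7* took opposite courses in the clones and in wild type. On day 4 all 6 clone libraries were above all E14Tg2a libraries, as was so for 1.63% of all genes. The difference of 0.64 was not called (limma adjusted p = 0.165). By day 6 the order had turned: 7.01 and 12.6 TPM in E14Tg2a stood against 3.17 and 4.12 TPM in ΔK9.1 and 3.32 and 2.43 TPM in ΔK9.2, a log2 fold change of −1.31 (standard error 0.29, limma adjusted p = 0.00909), or −0.93 (0.234) without E14Tg2a replicate 3. From day 0 to day 8 *Myl7* fell by 1.35 in ΔK9.1 (limma adjusted p = 0.000199) and fell by 1.15 in ΔK9.2 (0.000963), while it rose by 1.13 in E14Tg2a (0.000926). Without replicate 3 of E14Tg2a on day 8 the rise in wild type was no longer called.

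*Actc1* was lower in the clones on day 6, and no difference was called on day 8. It was at 20.9 and 24.5 TPM on day 6 in E14Tg2a, at 5.48 and 1.59 TPM in ΔK9.1 and at 5.02 and 6.15 TPM in ΔK9.2, a log2 fold change of −2.19 (standard error 0.32, limma adjusted p = 0.000216) that was called with any single library left out. On day 8 it was at 10.1, 12.2 and 10.6 TPM in E14Tg2a, at 6.63, 11.3 and 8.56 TPM in ΔK9.1 and at 12.4, 9.11 and 13.9 TPM in ΔK9.2. The groups overlapped, and the difference of −0.11 had a 95% interval from −0.65 to 0.43. *Myl4* lay between these patterns. On day 8 it was at 7.63, 14.8 and 24.3 TPM in E14Tg2a, at 6.42, 7.01 and 9.05 TPM in ΔK9.1 and at 3.49, 8.49 and 11.9 TPM in ΔK9.2, and its difference of −0.86 (standard error 0.31, limma adjusted p = 0.0492) was under the fold threshold. It was −1.27 without E14Tg2a replicate 1 and −1.03 without ΔK9.2 replicate 3, both past it. On day 6 *Myl4* was at −1.17 with a limma adjusted p of 0.082, or 0.00509 with the replicate block, where it was called. Without ΔK9.1 replicate 2 it was at −1.44.

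Counted by library, 9 of the 10 genes had all 4 clone libraries below both E14Tg2a libraries on day 6, as did 19.6% of all genes, and *Isl1* was the exception. On day 8 this held for 5 of the 10 (*Hand1*, *Nkx2-5*, *Tbx20*, *Tnnt2* and *Myl7*) against 7.99% of all genes. Without replicate 3 of ΔK9.1, 5 of the 10 genes were called lower on day 8 (*Hand2* was lost). The differences were then −0.86 for *Hand1*, −1.03 for *Nkx2-5*, −1.55 for *Tbx20*, 0.78 for *Isl1*, −1.50 for *Mef2c*, −2.26 for *Tnnt2*, −0.93 for *Myl4*, −2.13 for *Myl7* and −0.11 for *Actc1*. Across the single libraries left out, the count ranged from 4 (without E14Tg2a replicate 3) to 7.

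The 250 bases upstream of the RefSeq transcription start (GRCm38.p6, the mm10 sequence) are shown for the sarcomere genes with the widest gap between the groups on day 8, *Tnnt2* and *Myl7*, and for *Actc1*, for which no difference was called then. For *Actc1* the 12 bases that an annotated exon covers are left out. Capitals mark matches, on either strand, to GATA, AAGTG (the core bound by NKX2 proteins), TATAAA, the MEF2 site and the serum response element core called CArG box, each read 5′ to 3′ on the strand of the gene.
Tnnt2, chr1:135836084-135836333, plus strand: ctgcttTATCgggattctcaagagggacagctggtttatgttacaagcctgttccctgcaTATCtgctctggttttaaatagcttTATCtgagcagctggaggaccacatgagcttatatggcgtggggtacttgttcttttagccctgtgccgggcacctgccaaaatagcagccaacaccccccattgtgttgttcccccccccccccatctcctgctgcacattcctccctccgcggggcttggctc
Myl7, chr11:5898783-5899032, minus strand: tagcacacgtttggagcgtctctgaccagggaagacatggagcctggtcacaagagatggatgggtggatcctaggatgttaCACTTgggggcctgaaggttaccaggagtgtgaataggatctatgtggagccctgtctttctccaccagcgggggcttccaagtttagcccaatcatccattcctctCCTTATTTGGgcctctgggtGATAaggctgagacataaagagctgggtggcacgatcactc
Actc1, chr2:114052888-114053125, minus strand: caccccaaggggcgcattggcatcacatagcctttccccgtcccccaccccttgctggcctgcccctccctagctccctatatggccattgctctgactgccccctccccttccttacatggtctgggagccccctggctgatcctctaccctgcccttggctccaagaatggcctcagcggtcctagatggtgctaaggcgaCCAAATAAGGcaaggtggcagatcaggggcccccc

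A CArG box was found in the windows of *Myl7* and *Actc1*, and in 1.47% of the 32851 RefSeq promoter windows of 250 bases, over which all matches were counted. The *Tnnt2* window shown held 3 GATA matches and that of *Myl7* held 1, where 53.6% of all windows held at least 1. AAGTG was found in *Myl7* and not in the other 2 windows shown, against 40.7% of all windows. None of the 3 held TATAAA (12.4% of all windows) or a MEF2 site (2.92%). The E-box CANNTG, to which HAND proteins bind with their partners, had 4 matches in *Tnnt2*, 1 in *Myl7*, which overlaps its AAGTG match, and 0 in *Actc1*, and 66.2% of all windows held it. E-boxes are not in capitals. RefSeq lists a second start of *Tnnt2*, with its upstream window at chr1:135836739-135836988, which held 1 GATA and 1 E-box match and none of the other motifs. The bases just after that second start were found in a GENCODE transcript of *Tnnt2*. The bases searched after the start shown end before chr1:135836354, where GENCODE begins *Tnnt2*, so they could not be found. The search therefore does not tell which start was used. Of the 10 genes 9 had a RefSeq promoter entry, and *Hand1* had none.

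The change over time was then compared between genotypes, to ask whether the genes rose less in the clones than in wild type. From day 0 to day 8, 6 genes were called higher in ΔK9.1 (*Hand1*, *Hand2*, *Tbx20*, *Isl1*, *Mef2c* and *Actc1*) against 10.9% of all genes, and 1 lower (*Myl7*) against 10.0%. In ΔK9.2, 6 were called higher (*Hand1*, *Hand2*, *Tbx20*, *Isl1*, *Tnnt2* and *Actc1*) against 11.0%, and 1 lower (*Myl7*) against 11.3%. *Nkx2-5* and *Myl4* were called in neither clone, but in ΔK9.2 *Myl4* was called higher without replicate 1 of day 8 (1.22, limma adjusted p = 0.00594), as was *Mef2c* (1.15, 0.0239), and a pseudocount of 0.1 added *Nkx2-5* (1.73, 0.0105) and *Mef2c* (2.54, 0.00338). On day 6 the clones had 3 genes called higher in ΔK9.1 (*Hand1*, *Isl1* and *Actc1*, 4.95% of all genes) and 2 lower (*Tnnt2* and *Myl7*, 7.90%), and 5 higher in ΔK9.2 (*Hand1*, *Hand2*, *Tbx20*, *Isl1* and *Actc1*, 7.00%) and 2 lower (*Myl4* and *Myl7*, 10.5%). On day 4 *Myl4* was called lower both in ΔK9.1 (4.02%) and, against 5.09%, in ΔK9.2, while *Actc1* was called higher in ΔK9.2 (2.53%). *Tnnt2* was at −1.10 on day 4 in ΔK9.1 (limma adjusted p = 0.0506). It was called lower with the replicate block (0.0362), on the compared groups alone (0.013) and with a pseudocount of 0.1 (−2.27, 0.0258). That pseudocount also added *Actc1* as higher in ΔK9.1 (2.26, limma adjusted p = 0.00379). The day 4 calls of *Myl4* were lost with median ratio scaling, since the median of all genes from day 0 to day 4 was −0.21 in ΔK9.1 and −0.16 in the other clone without it and 0.00 with it. The values of *Myl4* were −1.12 and −1.09 without the scaling and −0.95 and −0.96 with it, and each was also lost without some single libraries. Single libraries decided further calls in the clones: without replicate 2 of day 6 in ΔK9.1, *Isl1* was at 0.43 (limma adjusted p = 0.55) and *Myl7* at −1.11 (0.0525), without replicate 3 of day 4 in ΔK9.2, *Actc1* was at 0.66, and the lower *Tnnt2* on day 6 in ΔK9.1 was lost without any 1 of its 5 libraries (0.0589 to 0.194). In ΔK9.1 on day 6 *Hand2* was called without replicate 3 (2.34, limma adjusted p = 0.0102) and with a pseudocount of 0.1 (3.23, 0.00313). In ΔK9.2 on day 6 *Hand2* was lost without replicate 1 of day 0 or either library of day 6 (limma adjusted p from 0.0522 to 0.105), and *Tbx20* without replicate 1 or 2 of day 0 or either library of day 6 (0.0551 to 0.129). *Myl4* on day 6 in ΔK9.2 was lost without replicate 3 of day 0 (−0.96) or either library of day 6 (−1.31 and −0.92), and *Tnnt2* on day 8 in ΔK9.2 without replicate 1 (0.90) or 2 (1.15) of day 0 or replicate 2 (0.90) or 3 (1.10) of day 8.

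The difference between the changes, tested as an interaction of day 8 minus day 0 in clones minus E14Tg2a, was called lower for 4 of the 10 genes against 2.55% of all genes. It was −2.95 for *Tnnt2* (standard error 0.51, limma adjusted p = 0.0021), −2.38 for *Myl7* (0.33, adjusted p = 0.000449), −1.71 for *Mef2c* (0.47, adjusted p = 0.0302) and −1.39 for *Nkx2-5* (0.31, adjusted p = 0.0115). *Tnnt2* was at 2.49, 1.58 and 1.73 TPM on day 0 in ΔK9.1, at 0.41, 0.42 and 0.31 TPM in E14Tg2a and at 0.11, 0.57 and 1.10 TPM in ΔK9.2, so that all ΔK9.1 libraries were above the others, with a difference of the clones to E14Tg2a of 0.62 (limma adjusted p = 0.403). The interaction of *Mef2c* was no longer called with a pseudocount of 0.1 (adjusted p = 0.0725) or in a fit on the compared groups alone (0.121), and it had adjusted p from 0.0505 to 0.145 without replicate 2 or 3 of E14Tg2a on day 0 or day 8, or without replicate 1 of either clone on day 8. With the replicate block *Hand2* (−1.38, adjusted p = 0.0479) and *Tbx20* (−1.55, adjusted p = 0.0107) were also called. The count stayed at 4 without replicate 3 of ΔK9.1 on day 8. *Tbx20* was called as well without E14Tg2a replicate 1 (0.0394), ΔK9.1 replicate 2 (0.0184) or ΔK9.2 replicate 2 (0.0284) of day 8. The values of *Isl1* (0.49) and *Actc1* (0.00) had 95% intervals from −0.46 to 1.44 and from −0.76 to 0.77.

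Each clone was also set against E14Tg2a by itself on day 8, with the wild-type libraries shared by both comparisons. In ΔK9.1, 5 of the 10 genes were called lower (*Nkx2-5*, *Tbx20*, *Mef2c*, *Tnnt2* and *Myl7*) against 2.41% of all genes. In ΔK9.2, 6 were called lower (these 5 and *Hand2*) against 4.24%. Fitted on the compared groups alone, 0 of the 10 genes were called in either clone. The log2 fold changes in ΔK9.1 and ΔK9.2 were −2.04 and −1.73 for *Tbx20*, −2.32 and −2.34 for *Tnnt2*, −2.27 and −2.03 for *Myl7*, −1.14 and −1.14 for *Nkx2-5*, and −1.21 and −2.11 for *Mef2c*. In ΔK9.1, *Nkx2-5* was at −0.92 without replicate 3 of that clone and at −0.98 without E14Tg2a replicate 3, and *Mef2c* had adjusted p from 0.14 to 0.24 without replicate 2 or 3 of E14Tg2a or replicate 1 or 3 of ΔK9.1, 0.149 with a pseudocount of 0.1 and 0.0502 with a minimum of 5 TPM. Without replicate 2 of ΔK9.1 it was at −1.92. *Hand1* in ΔK9.1 was called with the replicate block (−1.41, adjusted p = 0.033) or without replicate 1 of ΔK9.1 (−1.80, 0.0499), and *Hand2* without replicate 2 of ΔK9.1 (−1.65, 0.0364). Without replicate 3 of ΔK9.1 the values of that clone were −0.76 for *Hand1*, −0.18 for *Hand2* (−1.41 and −1.04 with it, not called either way), −1.36 for *Tbx20*, −0.89 for *Mef2c*, −2.19 for *Tnnt2* and −2.23 for *Myl7*, of which *Tbx20*, *Tnnt2* and *Myl7* were called. In ΔK9.2, *Nkx2-5* was at −0.98 without E14Tg2a replicate 3, and *Hand2* had adjusted p from 0.0698 to 0.162 without E14Tg2a replicate 2 or ΔK9.2 replicate 1 or 3, and 0.0946 with a pseudocount of 0.1. *Myl4* was called in both clones without E14Tg2a replicate 1 (−1.25 and −1.29) and in ΔK9.2 without its replicate 3 (−1.21). Between ΔK9.1 and ΔK9.2, limma called 0 of the 10 genes, as it called 0.00% of all genes, and 990 genes had an unadjusted p under 0.05. The largest gap was that of *Mef2c*, 0.90 higher in ΔK9.1 with a 95% interval from 0.11 to 1.69 and an adjusted p of 0.772.

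Levels of the clones on day 8 were also set beside those of wild type on day 6, to ask which genes had reached by then the level of the earlier day. Of the 10 genes 1, *Hand2*, was higher in the clones on day 8 than in E14Tg2a on day 6 (1.80, limma adjusted p = 0.0337), against 1.04% of all genes. *Myl7* (−1.15, limma adjusted p = 0.0105) and *Actc1* (−1.10, limma adjusted p = 0.0263) were lower, against 1.14%. The other 7 had differences from 0.02 (*Nkx2-5*) to 1.03 (*Tbx20* and *Hand1*) and were not called. When 1 library was left out, between 0 (without E14Tg2a replicate 3) and 5 (without ΔK9.1 replicate 3) of the 10 genes were called. All 3 calls were lost in a fit on the compared groups alone (adjusted p from 0.108 to 0.311), and those of *Hand2* (0.114) and *Actc1* (0.211) with a pseudocount of 0.1.

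Other genes of the heart were then examined, from lists of known genes by role. Every gene of the table had a mean above 1 TPM in at least 1 line and day, so the counts cover the genes of each list that reached that level. Of 28 further contractile genes 22 were listed, of which 6 were called lower and 0 higher in the clones on day 8, against 3.42% and 0.826% of all genes, and their median log2 fold change was −0.31. *Tnni1*, the slow skeletal troponin I that the embryonic heart also uses, was at 23.1, 92.5 and 91.8 TPM in E14Tg2a, at 8.57, 27.1 and 12.5 TPM in ΔK9.1 and at 3.22, 13.8 and 23.3 TPM in ΔK9.2 (−2.16, limma adjusted p = 0.00114). *Nexn*, an actin-binding protein of the Z disc, was lower by a value of −1.85 (limma adjusted p = 0.000533), *Myl3*, the ventricular essential light chain, by −1.55 (0.0121), and *Myh7*, the β-myosin heavy chain, by −1.39 (0.000652). The other 2 were *Myh6* (−1.34) and *Nebl* (−1.26). *Myh6*, the α-myosin heavy chain and a defining gene of cardiomyocytes, was at 3.57, 2.44 and 3.82 TPM in E14Tg2a on day 8, and *Tnni3*, the cardiac troponin I, was at 6.91, 4.59 and 4.51 TPM. The summed TPM of the 22 genes ran from 1611 to 2013 in E14Tg2a, from 1208 to 1607 in ΔK9.1, just below it, and from 1230 to 2270 in ΔK9.2, which overlapped with it. This list includes tropomyosin genes that other cells also use. Without ΔK9.1 replicate 3 the count was 6 lower as well.

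Of 28 further cardiac transcription factors and regulators 25 were listed, of which 2 were called lower and 2 higher in the clones (3.42% and 0.826% of all genes), with a median of −0.46. *Smarcd3*, the chromatin remodelling subunit BAF60C of the heart, was at 19.4, 31.5 and 36.1 TPM in E14Tg2a against 7.94, 19.2 and 3.67 TPM in ΔK9.1 and 6.98, 6.88 and 4.98 TPM in ΔK9.2 (−1.82, limma adjusted p = 0.000188). *Tcf21*, a factor of epicardial and other mesenchymal progenitors, was also lower (−1.31, limma adjusted p = 0.0101). Those called higher were *Mesp1* (1.72, limma adjusted p = 0.0396) and *Mesp2* (1.58, limma adjusted p = 7.39e-05), which mark nascent mesoderm before the heart field forms. *Mesp1* spread widely, from 0.60 to 19.2 TPM in E14Tg2a and from 5.23 to 74.9 TPM in the clones. On day 6 it was *Gata4* (−2.74, limma adjusted p = 0.0378), *Tbx2*, *Foxc2* and *Mesp2* (−1.08) that were lower, so *Mesp2* was lower in the clones on day 6 and higher on day 8. The paper stained GATA4 as a marker of primitive endoderm. The extra-embryonic endoderm genes examined below summed on day 6 to 53.89 and 172.1 TPM in E14Tg2a. They summed to 5.53 and 18.05 TPM in ΔK9.1 and to 10.18 and 10.88 TPM in ΔK9.2. The part of such cells in the lower *Gata4* was not tested. Without ΔK9.1 replicate 3, 1 gene of this list was lower on day 8 (*Tcf21*, at −0.95, was lost) and 2 were higher.

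Of 20 signals and receptors of the heart field 19 were listed, of which 4 were lower and 1 higher on day 8, beside the same shares of all genes, with a median of −0.61. *Wnt2* (−1.74, limma adjusted p = 5e-04), *Bmp5* (−1.62, 0.000159) and *Wnt11* (−1.43, 0.0154), all secreted ligands of mesoderm and the heart field, were lower, as was *Smad6* (−1.02), an inhibitor of BMP signalling. *Wnt11* did not overlap between the groups: it was at 18.3, 18.9 and 18.8 TPM in E14Tg2a and between 1.99 and 9.62 TPM in the clones. *Fgf8*, a ligand of the primitive streak and second heart field, was higher (2.33, limma adjusted p = 0.0014), at 51.5, 6.56 and 28.7 TPM in E14Tg2a, 112.3, 46.5 and 119.9 TPM in ΔK9.1 and 176.3, 111.7 and 170.1 TPM in ΔK9.2. Of 23 genes for calcium handling, conduction and natriuretic peptides 14 were listed, of which 0 were lower and 1 was higher (*Kcnj3*, 1.44), with a median of 0.09. *Gja1*, the gap junction protein connexin 43, was at 155.0, 115.5 and 152.8 TPM in E14Tg2a and between 142.6 and 246.3 TPM in the clones (0.29, limma adjusted p = 0.356), and *Atp2a2*, the calcium pump of the sarcoplasmic reticulum that most cells also express, had a difference of −0.09 (limma adjusted p = 0.509). Without ΔK9.1 replicate 3, 3 of the signals were lower (*Smad6*, at −0.74, was lost) and 2 higher (*Bmp7*, another BMP ligand, was added at 1.01), with a median of −0.21 over the 19, and *Kcnj3* was lost (1.13, limma adjusted p = 0.0802).

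**Figure D3:**
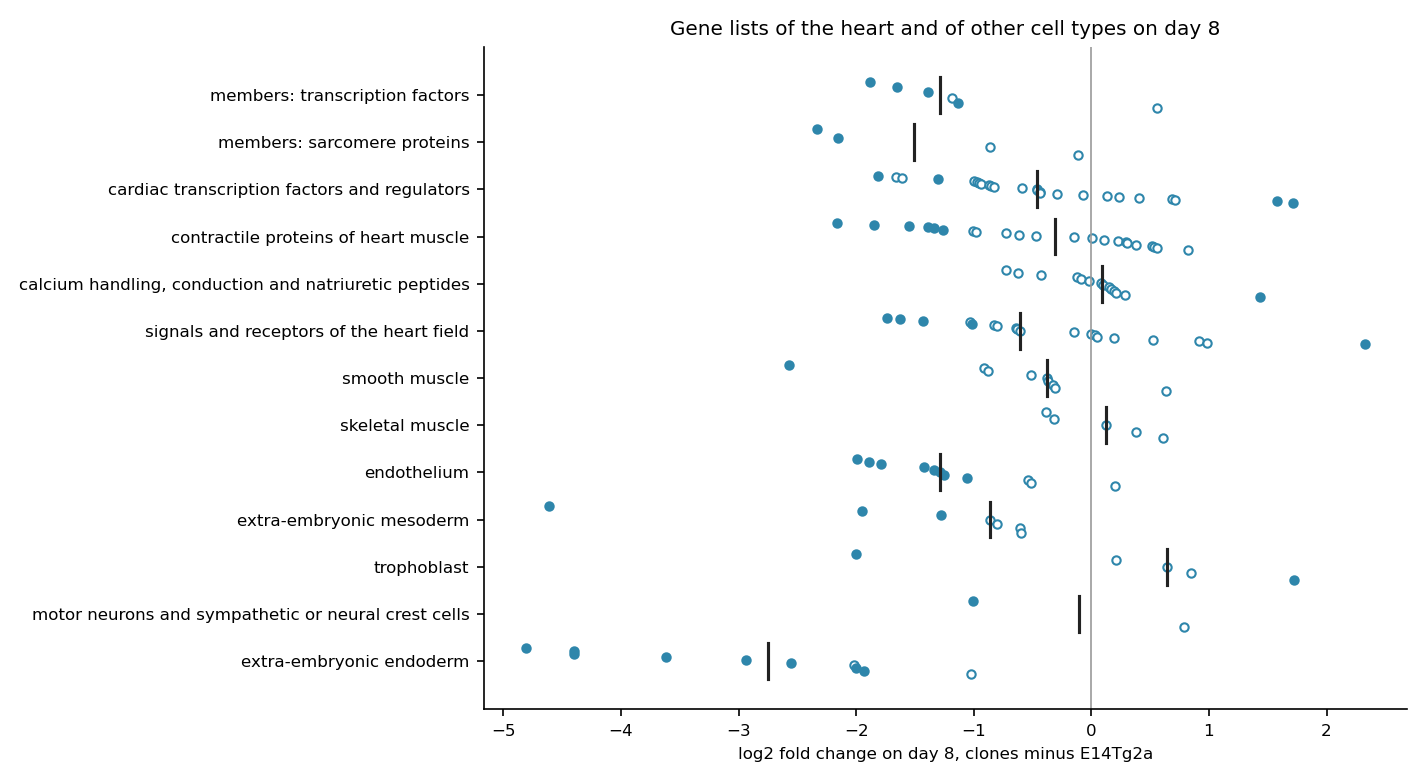
The log2 fold change on day 8 (both clones minus E14Tg2a, x axis) is shown for every gene of each list, filled where the thresholds were passed, with a bar at the list's median. The 4 sarcomere genes have a median of −1.51 and the 22 further contractile genes one of −0.31, while the extra-embryonic endoderm list lies lowest.

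Because several of the 10 genes are used by other cell types, marker lists of those cells were examined in the same libraries. For extra-embryonic mesoderm, where *Hand1* is abundant, 3 of 7 genes were lower in the clones on day 8 (against 3.42% of all genes), and the list summed to between 277.5 and 742.4 TPM in E14Tg2a, between 67.4 and 284.9 TPM in ΔK9.1 and between 139.8 and 206.6 TPM in ΔK9.2. *Postn*, the most abundant of the list by its mean in E14Tg2a through replicate 2 alone, was at 35.4, 397.1 and 60.1 TPM in E14Tg2a and between 0.30 and 15.3 TPM in the clones (−4.61, limma adjusted p = 5.21e-06). *Pitx1* was lower (−1.95), and *Bmp4*, the most abundant in the other 2 E14Tg2a libraries, had a difference of −0.61 (limma adjusted p = 0.381). For endothelium, which shares *Mef2c*, 8 of 11 genes were lower in the mean of both clones, 2 in ΔK9.1 alone and 8 in ΔK9.2 alone, while 0 differed between the clones by limma (median difference 0.78, ΔK9.1 minus ΔK9.2), with sums between 183.6 and 331.2 TPM in E14Tg2a, between 89.8 and 290.3 TPM in ΔK9.1 and between 91.8 and 155.0 TPM in ΔK9.2. *Cdh5*, the endothelial cadherin, was at −1.89 (limma adjusted p = 0.00498), *Pecam1* at −1.28 (0.00471) and *Egfl7* at −0.51 (0.103). Of 10 extra-embryonic endoderm genes 8 were lower, among them *Ttr* (−4.81), *Afp* (−4.40) and *Sox17* (−2.00), and the sums did not overlap, with 229.2 to 398.7 TPM in E14Tg2a and 10.4 to 63.7 TPM in the clones. Without ΔK9.1 replicate 3 the counts were 3 of 7, 6 of 11 (*Erg* and *Esam* were lost) and 7 of 10 (*Sox17* was lost). On day 6, 2 of the 7 extra-embryonic mesoderm genes were lower (median −1.11), 0 of the 11 endothelial genes (−0.43) and 2 of the 10 extra-embryonic endoderm genes (−1.75), against 1.37% of all genes. On day 4 it was 0 of 7, 0 of 11 and 8 of 10 (median −2.71 for extra-embryonic endoderm), against 0.710%. The part of these cells in the lower heart genes was not tested.

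In smooth muscle genes, 1 of the 9 listed of 11 (*Acta2*, −2.57, limma adjusted p = 0.00105) was lower and sums ran from 708.9 to 1259 TPM in E14Tg2a, from 297.9 to 569.2 TPM in ΔK9.1 and from 314.3 to 696.9 TPM in ΔK9.2. *Tagln* (−0.36) and *Cald1* (−0.88, under the fold threshold) were not called. In skeletal muscle genes 0 of the 5 listed of 13 were called, with sums between 18.9 and 25.0 TPM in E14Tg2a and between 13.5 and 24.4 TPM in the clones. *Tnnt3* had a difference of −0.32, *Tnni2* of −0.39 and *Pax3* of 0.61. The skeletal muscle determination genes *Myod1*, *Myf5* and *Myog* were not analysed here. Of the 5 trophoblast genes listed of 10, *Eomes*, also a gene of the primitive streak, was higher (1.72), *Plac1* was lower (−2.01) and *Cdx2* had a difference of 0.84 (limma adjusted p = 0.309), with sums between 69.5 and 164.2 TPM in E14Tg2a and between 61.1 and 218.0 TPM in the clones. The list of motor neurons and sympathetic or neural crest cells, which share *Isl1* and *Hand2*, had 2 listed genes of 10. *Phox2a* was lower (−1.01, limma adjusted p = 0.00442), *Sox10* had a difference of 0.79 under the fold threshold, and the sum was at most 11.6 TPM in any library. The counts of these 4 lists were the same without ΔK9.1 replicate 3. The part of these cells was not tested either.

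**Figure D4:**
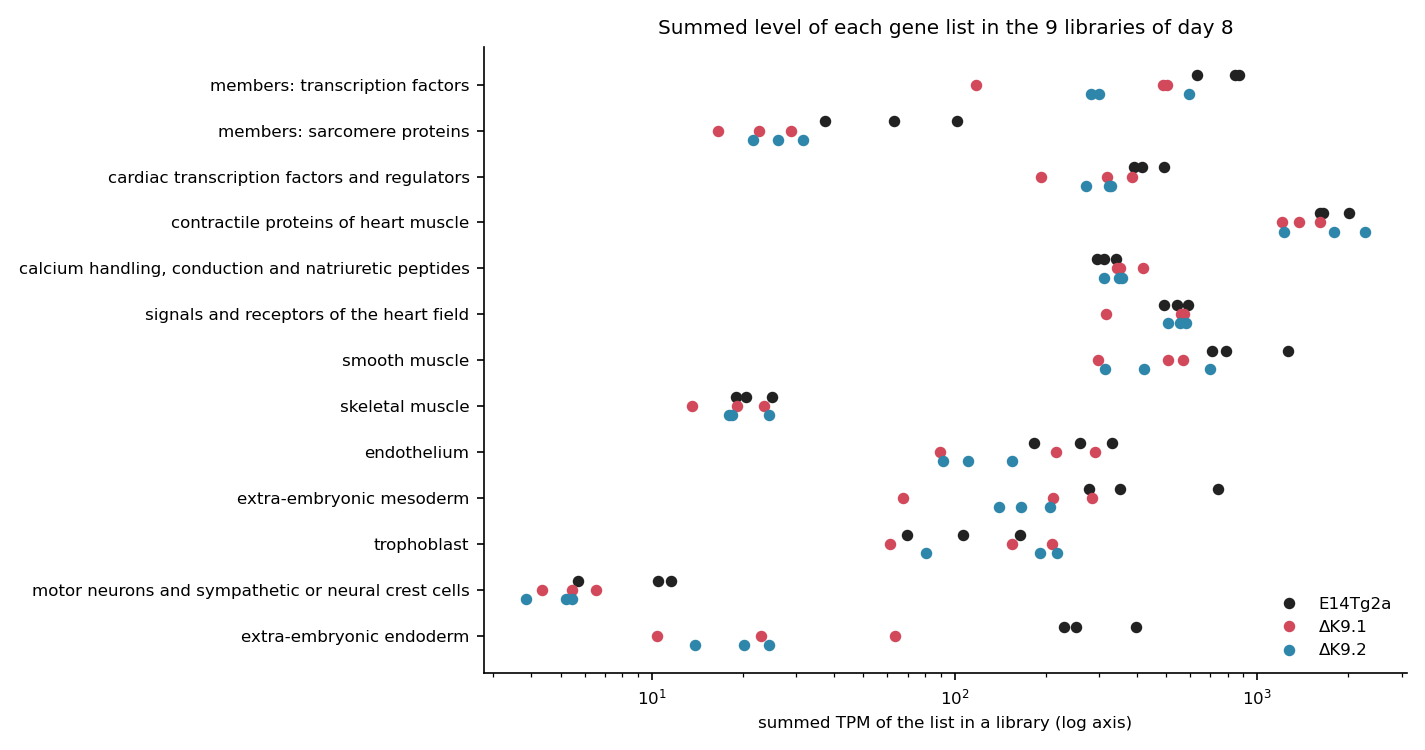
Each point is the summed TPM of a list in 1 of the 9 libraries of day 8 (log axis), coloured by line. The sums of the 6 factors, the 4 sarcomere genes, the 25 cardiac regulators, smooth muscle and extra-embryonic endoderm lie lower in every clone library than in E14Tg2a, and those of the other lists overlap.

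Over the 12 group means of log2(TPM + 1), *Hand1*, *Hand2*, *Tbx20* and *Isl1* ran close together (Pearson's r from 0.91 to 0.98), and *Tnnt2* ran closest to *Nkx2-5* (0.98). *Myl7* had r from −0.13 (*Actc1*) to 0.58 (*Tnnt2*) with the other 9 genes. These values describe 12 groups that share the day of differentiation. Among 12071 other genes with a group mean of at least 5 TPM, those most like the mean profile of the 6 factors were *Bmp5* (r = 0.996), *Hlx* (0.995), *Cd44* (0.993), *Gm50321* (0.993) and *Dlk1* (0.992). Those most like the 4 sarcomere genes were *Tmbim1* (0.967), *Thap4* (0.953), *Uap1* (0.952), *Plekha6* (0.952) and *Ecm1* (0.950).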

How the data were processed

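RNA-seq of E14Tg2a, ΔK9.1 and ΔK9.2 cells was analysed on days 0, 4, 6 and 8 of EB differentiation. The authors prepared stranded poly-A libraries, mapped the read pairs with STAR (mm10), estimated abundance by RSEM and computed TPM after removing outliers by a PCA. The values used are TPM as deposited by the authors, listed for 16336 genes in 33 libraries; each gene has a mean above 1 TPM in at least 1 line and day, and values sum to between 994284 and 998266 per library. The study gives an approximate read number common to all libraries, and TPM do not keep the reads of each library, so no counting intervals are given and precision was taken from the replicates. Columns with the authors' DESeq2 log2 fold changes and FDR were not used, and versions are not given in the sources used here.

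Tests were made with limma 3.58.1 (R 4.3.3) on log2(TPM + 1), with an intensity trend, 1 mean per line and day and Benjamini-Hochberg adjustment over all genes; the code was tested on simulated data. The study's methods describe 3 independent assays of lines differentiated in parallel. Gene positions are those of GENCODE M21 (mm10) and promoters those of RefSeq (GRCm38.p6). Figures were drawn with Python 3.11.15. The alternatives were a pseudocount of 0.1, a minimum group mean of 5 TPM, median ratio scaling over 14539 genes, fits on the compared groups alone, the replicate number as a block, and the omission of single libraries.

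The members and gene lists were chosen with earlier results of these data known. Named genes are all members, the 4 most changed called genes of each heart list on day 8 (the 2 most abundant where fewer than 2 were called), the 3 most abundant of each other cell type, the 5 most like each group of members, and *Nanog*. *Pou5f1*, *Sox2*, *Zfp42*, *Esrrb*, *Hand2os1*, *Myh6*, *Nebl*, *Tnni3*, *Smad6*, *Kcnj3*, *Bmp7*, *Erg*, *Esam* and the day 6 genes *Gata4*, *Tbx2* and *Foxc2* were added after their values were seen. Line and day means removed, libraries of the same number, day and different line correlated with a median r of 0.22 (33 pairs, 31 above 0.1, lowest −0.01 on day 6), and those of different numbers with −0.13 (60 pairs). The design text describes cultures run in parallel, so the numbers were taken to pair the libraries on days 0, 4 and 8, and the blocked fit is given where it changed a call. Day 6 had 2 pairs for each couple of lines. Libraries of the same number then correlated at 0.20 between E14Tg2a and ΔK9.1, 0.10 between E14Tg2a and ΔK9.2 and −0.01 between the clones. The blocked calls of that day are therefore given as alternatives only. Calls and p not marked as blocked come from the fit without a block.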

Additional observations from a re-analysis of the deposited data

Results flagged for a closer look

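The interaction test in limma called 4 of the 10 genes lower, against 2.55% of all genes (adjusted p under 0.05, log2 fold change beyond 1 in size). For these the day 8 minus day 0 change differed between the clones and wild type. On the log2 scale the clones minus E14Tg2a came to −1.39 for *Nkx2-5*, −1.71 for *Mef2c*, −2.95 for *Tnnt2* and −2.38 for *Myl7*. The call of *Mef2c* was lost under several alternatives (limma adjusted p from 0.0505 to 0.145). With the replicate block *Hand2* and *Tbx20* were called as well. No group held the 4 or more libraries that a test for single outlying values needs.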

How the results depend on the processing

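No count of called genes and no single gene on day 8 changed its direction under an alternative: of 218 recomputed counts 182 stayed within 1.5 times the reported one, and of 139 recomputed values of single genes on day 8, 121 kept their side of the thresholds. Fits on the compared groups alone called 0 of the 10 genes on day 6, 1 on day 8, 0 in either clone against E14Tg2a on day 8, 0 for the clones on day 8 against E14Tg2a on day 6, 2 from day 0 to day 4 in ΔK9.1 and 1 in ΔK9.2. A pseudocount of 0.1 gave 3 in ΔK9.1 on day 4 and 1 for the clones on day 8 against E14Tg2a on day 6. Median ratio scaling gave on day 4 a count of 1 for E14Tg2a, of 0 for ΔK9.1 and of 1 for ΔK9.2, and a minimum of 5 TPM, under which *Nkx2-5* was not tested and *Mef2c* was lost (adjusted p = 0.0502), gave 3 for ΔK9.1 on day 8. The replicate block gave 2 in ΔK9.1 on day 4 (*Tnnt2* was added), 6 for the clones on day 6 (*Tbx20* and *Myl4* were added, on a day whose numbers were not taken to pair the libraries), 7 on day 8, 6 in the interaction and 6 for ΔK9.1 alone on day 8, and changed no other call of the 10 genes. Over all genes, 265 were called on day 6 (5 in the fit on its own groups, 441 with the block), 693 on day 8 (197 in the fit on its own groups), 506 in ΔK9.1 alone and 849 in ΔK9.2 alone on day 8 (1 and 59 in fits on their own groups), 499 in the interaction (228 in the fit on its own groups, 792 with the block) and 0 between ΔK9.1 and ΔK9.2 (11 with the block).

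With 1 library left out at a time, the counts for the clones against E14Tg2a ranged from 0 to 1 on day 4, from 2 to 7 on day 6 and from 4 to 7 on day 8. They ranged from 3 to 6 for ΔK9.1 alone on day 8 and from 0 to 5 for the clones on day 8 against E14Tg2a on day 6. Against day 0 they ranged from 1 to 2 on day 4 in E14Tg2a, from 0 to 1 on day 4 and from 2 to 5 on day 6 in ΔK9.1, and from 1 to 2 on day 4 and from 4 to 6 on day 6 in ΔK9.2. Where a group was left with 1 library, that library was assumed to vary like the others. The causes were not tested. TPM do not keep the read count of a gene, so the counting error of values below about 1 TPM is not given here.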
